A study of Mus musculus with 15 samples.

Results

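The nuclear genes of the oxidative phosphorylation (OXPHOS) complexes were followed in RNA-seq of the mouse colon. They were taken by symbol, as all genes whose name begins with Nduf, Uqcr, Atp5 or Cox followed by a digit from 4 to 8, the genes Sdha to Sdhd, and Cycs. The rule found 85 genes among the 12897 genes counted in any of the 3 deposited tables, and all 85 were in all 3 tables. By symbol, 43 belong to complex I, 4 to complex II, 8 to complex III, 12 to complex IV and 17 to complex V, and Cycs encodes cytochrome c. Of the 85 genes, 75 encode subunits or cytochrome c, and 10 do not: Ndufaf1 to Ndufaf7, which are assembly factors of complex I, Cox7a2l, a factor of respiratory supercomplexes, and Atp5s and Atp5sl. Ndufa4 was grouped with complex I by its name, although its product is now assigned to complex IV. In RefSeq, 14 further protein-coding symbols fit the rule, Cox4i2, Cox6a2 and Ndufs5 among them, and were not analysed here. The 13 subunits encoded by mitochondrial DNA were not analysed here either.

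The samples were 15 distal colons, 3 mice in each of 5 groups, and the design text calls the mice biological replicates. All mice were of the strain the labels call C57BL/6 and the study's methods C57BL/6J (B6), with the mutation on that background. The labels give neither age nor sex, and the methods give young adults for the longer AOM/DSS model but no age for these mice. Wild-type B6 mice were untreated (control set 1 and control set 2, which carry the same labels) or at D26 of AOM/DSS treatment, and Irf1-/- mutants were untreated or at D26 of the same treatment. Treatment was 1 injection of azoxymethane (AOM, 7 mg/kg), a carcinogen for the colon, on D1, followed from D8 to D11 by drinking water with 2% dextran sulfate sodium (DSS), which injures the colonic epithelium. Irf1 encodes a transcription factor of the interferon response, and Irf1-/- mutants lack it in all cells of the body. The tissue was a whole piece of colon, so fewer cells of a type and less RNA per cell cannot be told apart.

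Oxidative phosphorylation is the last stage of aerobic energy metabolism. In the inner mitochondrial membrane, complex I takes electrons from NADH and complex II from succinate, complex III passes them on to cytochrome c, and complex IV gives them to oxygen. The proton gradient built on the way drives complex V, the ATP synthase. Absorptive cells of the colon are known for oxidizing butyrate, a product of gut bacteria, in their mitochondria.

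The tables hold 22266607 to 22869853 counted reads in each library, of which the OXPHOS genes held 1.13% to 1.30%. Their counts lay between 87 and 35486 reads per gene and library. Levels are CPM, counts scaled to the TMM-normalized library size. Tests were edgeR's quasi-likelihood F-tests, with p adjusted over all genes by the Benjamini-Hochberg method. Called genes had a fold change (FC) of 1.5 or more and an adjusted p under 0.01, the thresholds of the study, and a second count was made at an adjusted p under 0.05 with no fold limit. Irf1 itself lay between 79.4 and 123 CPM in the Irf1-/- libraries and between 128 and 227 CPM in the B6 libraries, without overlap. Which exons these reads came from cannot be seen in a gene total. In the 3 libraries of treated B6 mice, log2 values rose by 0.14 to 0.30 per 10% of GC content relative to the mean of all libraries. In the other 12 libraries this slope was -0.13 to 0.03. Per doubling of transcript length, the slope was -0.036 to -0.021 in treated B6 libraries and -0.018 to 0.036 in the other 12. Neither property can be told apart from the treatment of B6 mice.

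The OXPHOS genes were short and mostly well expressed. Their median transcript length was 718.5 nt, against 2230 nt for all genes, and 69.4% of them were under 1000 nt, against 17.9%. Per kilobase of transcript and averaged over the 15 libraries, the highest level was that of Atp5b, the catalytic beta subunit of the ATP synthase, at 755 CPM per kb. Cox4i1, a regulatory subunit of complex IV, followed at 593 CPM per kb and Atp5a1, the alpha subunit of the ATP synthase, at 481 CPM per kb. By complex, the median level per kilobase was 74.3 CPM for complex I, 177 for complex II, 238 for complex III, 330 for complex IV and 246 for complex V. Assembly factors stood at the low end, from 4.59 CPM per kb for Ndufaf6. The lowest complex IV gene was Cox7a1, the muscle isoform of a subunit whose common isoform is Cox7a2, at 53.3 against 235 CPM per kb. The 3 genes for the c ring of the ATP synthase, which encode the same mature protein, differed in level, with Atp5g3 at 263, Atp5g2 at 169 and Atp5g1 at 39.9 CPM per kb. Atp5c1, Atp5f1, Atp5k, Atp5l, Cox5b, Cox7c, Ndufa12, Ndufab1 and Uqcrh have pseudogenes named after them, and their counts are uncertain because reads could have been split between the copies.

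Promoters of OXPHOS genes are known to hold sites of nuclear respiratory factor 1 (NRF1), of ETS-type factors such as GABP, of estrogen-related receptors (ERR) and of YY1. RefSeq windows of 300 bases, from 250 before to 50 after a start, were at hand for 73 of the 85 genes (79 windows, mouse build GRCm38.p6). On either strand, the NRF1 pattern, GCGCA and GCGC with 1 free base between them, was in 24.1% of these windows and in 4.60% of the 32851 windows of all genes. The ETS pattern CCGGAAG was in 21.5% against 8.86%, the YY1 pattern AAGATGGC in 15.2% against 2.75%, and the ERR pattern TCAAGGTCA in 2.53% against 0.423%. The windows of all genes here are those of all RefSeq genes, whether or not they were counted in these colons. The ERR share rests on 2 windows of OXPHOS genes. No pattern contains another, and 40 of the 73 genes held at least 1 of the 4. The lines show the 120 bases before the start for genes with matches and, for comparison, for Cox7c, a complex IV gene without one that the comparisons return to. They are 5′ to 3′ on the strand of the gene, with matches in capitals.
Ndufaf4 (chr4:24897963-24898082, plus strand, NRF1): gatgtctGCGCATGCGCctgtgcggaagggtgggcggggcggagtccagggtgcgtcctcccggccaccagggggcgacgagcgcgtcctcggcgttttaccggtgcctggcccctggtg
Sdha (chr13:74350241-74350360, minus strand, NRF1 at 3 places): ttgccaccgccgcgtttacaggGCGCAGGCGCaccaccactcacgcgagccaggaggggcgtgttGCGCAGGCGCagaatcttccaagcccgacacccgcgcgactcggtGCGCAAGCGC
Cox6a1 (chr5:115348959-115349078, minus strand, NRF1 and ETS): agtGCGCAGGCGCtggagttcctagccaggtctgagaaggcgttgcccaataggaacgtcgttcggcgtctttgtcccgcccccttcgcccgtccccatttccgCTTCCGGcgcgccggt
Atp5j (chr16:84834977-84835096, minus strand, YY1 and ETS): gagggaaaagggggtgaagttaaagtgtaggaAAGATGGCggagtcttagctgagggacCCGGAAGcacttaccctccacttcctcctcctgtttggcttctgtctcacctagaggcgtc
Atp5g3 (chr2:73911327-73911446, minus strand, ERR): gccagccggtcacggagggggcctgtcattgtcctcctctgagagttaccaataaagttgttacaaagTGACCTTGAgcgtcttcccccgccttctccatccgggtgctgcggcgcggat
Cox7c (chr13:86046796-86046915, minus strand, no match): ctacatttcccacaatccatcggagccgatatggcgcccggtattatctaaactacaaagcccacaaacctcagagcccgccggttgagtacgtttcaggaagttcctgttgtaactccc

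Across the 15 libraries, the OXPHOS genes of treated Irf1-/- mutants were the lowest. For each library, the log2 deviation of every gene from its mean over all libraries was taken, and the median over the 85 genes was -0.12, -0.12 and -0.10 in treated Irf1-/- mutants. The other 12 libraries ranged from -0.05 to 0.10. The 3 treated Irf1-/- libraries were below all others in each of complexes I to V, as the plot by complex shows. In each of these 3 libraries, 74 to 78 of the 85 genes were below their own mean, against 7 to 64 genes in the other libraries. The untreated B6 libraries of control set 2 spread most, from -0.05 to 0.10.

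**Figure D1:**
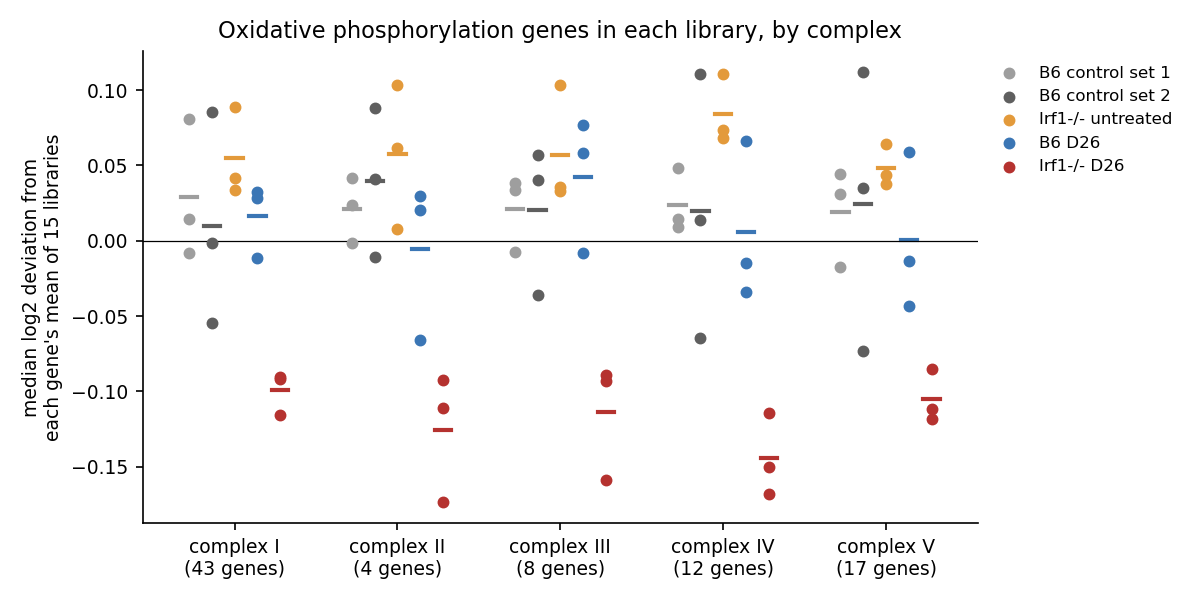
Each point is 1 library, and its height is the median log2 deviation, over the genes of a complex, from each gene's mean of 15 libraries. Bars are group means of 3 mice, and the treated Irf1-/- libraries lie below the other 12 in every complex.

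Gene by gene, the 3 treated Irf1-/- libraries were below all 12 other libraries for 17 of 85 OXPHOS genes (20%), where the background over the 12370 genes in all tables was 1.12%. Among them were Atp5a1, Atp5b and Atp5j2 of complex V, Cox4i1, Cox5a, Cox5b, Cox6b1, Cox7a2 and Cox7c of complex IV, Uqcr10 of complex III, Sdhb and Sdhc of complex II, and Ndufa13, Ndufb8, Ndufb9 and Ndufs7 of complex I. The mean of the treated Irf1-/- mutants was the lowest of the 5 groups for 60 genes (70.6%, background 17.1%), among them 11 of the 12 complex IV genes. The mean of the untreated Irf1-/- mutants was the highest of the 5 groups for 34 genes (40%, background 14.6%). Both of these groups enter the comparison of treated with untreated mutants. The treated B6 libraries were below all others only for Ndufaf4 (1.18%, background 7.03%).

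The first comparison asks whether loss of Irf1 alters these genes in the untreated colon. No OXPHOS gene was called in untreated Irf1-/- mutants relative to control set 2 (0 of 85, background 0.0874% higher and 0.318% lower), and none had an adjusted p under 0.05 in edgeR's quasi-likelihood test (background 0.437% higher and 0.81% lower). At an unadjusted p under 0.05 there was 1 gene higher (background 5.2%) and none lower (background 5.23%). This gene was Ndufa8, an accessory subunit of complex I, at 40.3, 39.1 and 38.1 CPM in the mutants and 32.5, 35.7 and 36.4 CPM in control set 2, without overlap, with a log2 FC of 0.17 (SE 0.07, edgeR adjusted p = 0.441). The median log2 FC was 0.04, with 23 of 85 genes below 0 (27.1%, background 49.2%), and complex medians ran from 0.02 in complex II to 0.08 in complex IV. This median was 0.01 without control set 2 replicate 1 (35 genes below 0) and 0.08 without control set 2 replicate 3 (7 below 0). For 8 genes all mutant libraries were above all control libraries (9.41%, background 7.83%), and for 0 genes below them (background 7.61%). Sdha, the subunit of complex II that oxidizes succinate, was among the 8, at 362, 364 and 359 CPM in the mutants and 344, 339 and 331 CPM in control set 2. Its log2 FC was 0.10 (SE 0.06, edgeR adjusted p = 0.679). The smallest log2 FC of an OXPHOS gene was that of Ndufaf1, at -0.13 (SE 0.14), and the largest that of Ndufaf6, at 0.23 (SE 0.19), both assembly factors of complex I.

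The 2 sets of untreated B6 mice give the difference to be met between groups with the same labels. No OXPHOS gene was called between control set 2 and control set 1 (background 0.0242% higher and 0.0403% lower) or had an adjusted p under 0.05 (background 0.169% higher and 0.403% lower). At an unadjusted p under 0.05, 4 were lower in set 2 (4.71%, background 8.08%) and 0 higher (background 9.11%). The median log2 FC was -0.01, with 44 of 85 genes below 0 (51.8%, background 50.8%). Libraries did not overlap for 4 genes higher (background 10.4%) and 9 genes lower (background 11%) in set 2. The smallest p was that of Ndufa7, an accessory subunit of complex I, which had 59.5, 56.7 and 58.5 CPM in set 2 and 71, 68.5 and 67 CPM in set 1. These values did not overlap, with a log2 FC of -0.24 (SE 0.07, edgeR adjusted p = 0.116).

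The next comparison asks how B6 mice had responded by D26. No OXPHOS gene was called in treated B6 mice relative to control set 1 (background 0.0316% higher and 0.0158% lower), and 2 genes fell at an adjusted p under 0.05, Ndufaf4 and Uqcrb (2.35%, background 4.52%), while none rose (background 3.95%). The median log2 FC of the 85 genes was -0.01, against 0.01 for all genes, with 43 of 85 genes below 0 (50.6%, background 48.2%). It was -0.05 with 57 genes below 0 after correction for GC content, and -0.06 with 56 below 0 after correction for length. By complex, the median was -0.01 for complexes I and II, 0.04 for complex III, 0.01 for complex IV and -0.02 for complex V. At an unadjusted p under 0.05, 5 genes were higher (background 14.7%) and 10 lower (background 14.8%). Libraries did not overlap for 9 genes higher (10.6%, background 16.4%) and 18 genes lower (21.2%, background 18.1%).

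Ndufaf4, an assembly factor of complex I whose promoter letters are shown with the NRF1 match, had the largest difference. It was at 14.1, 18.3 and 14.6 CPM in treated B6 mice and at 23.9, 24.5 and 28.9 CPM in control set 1. All treated values lay below all untreated ones, with a log2 FC of -0.71 (SE 0.13, edgeR adjusted p = 0.0226). This gene was called with DESeq2 (adjusted p = 0.000271), with edgeR's exact test, with all 15 libraries in 1 fit and with both control sets. With counts corrected for GC content its log2 FC was -0.45 (edgeR adjusted p = 0.0788), and with 1 mouse left out at a time its adjusted p ran from 0.0126 to 0.0923, under 0.05 in 2 of 6 fits.

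Uqcrb, a subunit of complex III near its ubiquinone site, was at 128, 120 and 118 CPM in treated B6 mice and at 152, 145 and 170 CPM in control set 1. The groups did not overlap, and the log2 FC was -0.34 (SE 0.09, edgeR adjusted p = 0.0435). After correction for GC content it was -0.08 (edgeR adjusted p = 0.644), and with each mouse left out in turn the adjusted p ran from 0.0387 to 0.177, under 0.05 in 1 of 6 fits. The GC content of Ndufaf4 is 42.3% and that of Uqcrb 42.2%, below the median of 51.6% for the OXPHOS genes.

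The largest positive log2 FC in B6 mice was that of Ndufv3, an accessory subunit beside the NADH site of complex I, at 72.3, 70.1 and 77.8 CPM against 60.7, 62.1 and 62.3 CPM in control set 1. Its values did not overlap, and the log2 FC was 0.26 (SE 0.08, edgeR adjusted p = 0.0646). Cox7a1, the muscle isoform in complex IV, was at 17.8, 17.6 and 20.7 CPM against 26.6, 27.7 and 20.8 CPM, and the treated values were below the untreated ones by a narrow margin. Its log2 FC was -0.41 (SE 0.13, edgeR adjusted p = 0.0828). Of the fixed subunits followed in every comparison, Ndufs1, Ndufv1, Sdha, Sdhb, Uqcrc1, Uqcrfs1, Cox4i1, Cox5a, Atp5a1 and Atp5b had log2 FC between -0.13 and 0.11, and none of them had an adjusted p under 0.05.

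**Figure D2:**
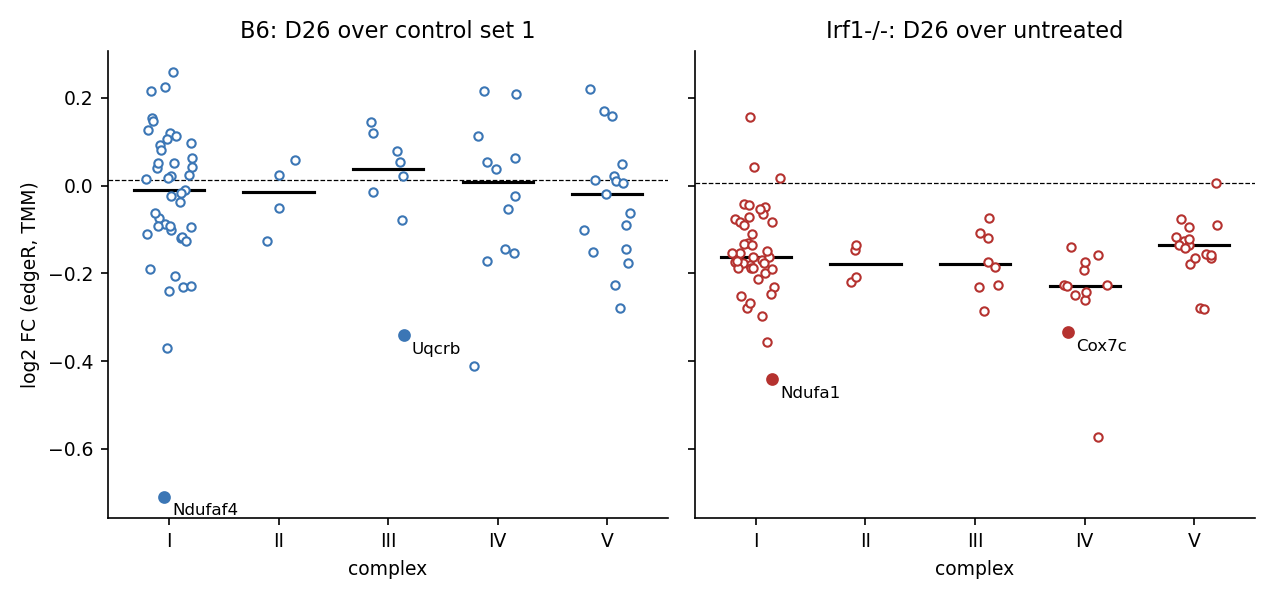
Each point is 1 OXPHOS gene of complexes I to V, with its log2 FC of treated over untreated mice in B6 (left) and Irf1-/- mutants (right). Black bars are medians, dashed lines the median of all genes and filled points genes with an adjusted p under 0.05, and in the mutants nearly all points lie below the dashed line.

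The same comparison in the mutants gave small differences in 1 direction. In treated Irf1-/- mutants relative to untreated ones, 81 of the 85 OXPHOS genes had a negative log2 FC (95.3%, background 48.2%), and the median was -0.16, a difference of -10.8%, against 0.01 for all genes. No gene was called (background 0.205% higher and 0.0473% lower). At an adjusted p under 0.05, 2 genes fell, Ndufa1 and Cox7c (2.35%, background 0.875%), and none rose (background 1.5%). At an unadjusted p under 0.05, 48 genes were lower (56.5%, background 8.47%) and 0 higher (background 10.1%). Libraries did not overlap for 58 genes lower (68.2%, background 13%) and 0 higher (background 12.2%), as the plot of shares shows. Of the 4 genes with a positive log2 FC, Ndufaf1 had 0.16 (SE 0.12) and Ndufs3, Ndufb3 and Atp5sl had 0.04 or less. In the alternative fits that tested all 85 genes 81 to 83 were negative, and with DESeq2 13 genes had an adjusted p under 0.05. The number at an unadjusted p under 0.05 was 31 without untreated Irf1-/- replicate 1 and 24 without replicate 2, fits with fewer libraries, and 26 with edgeR's exact test. Shares of all genes in DESeq2 and these other fits are not given here, so these counts have no background beside them.

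**Figure D3:**
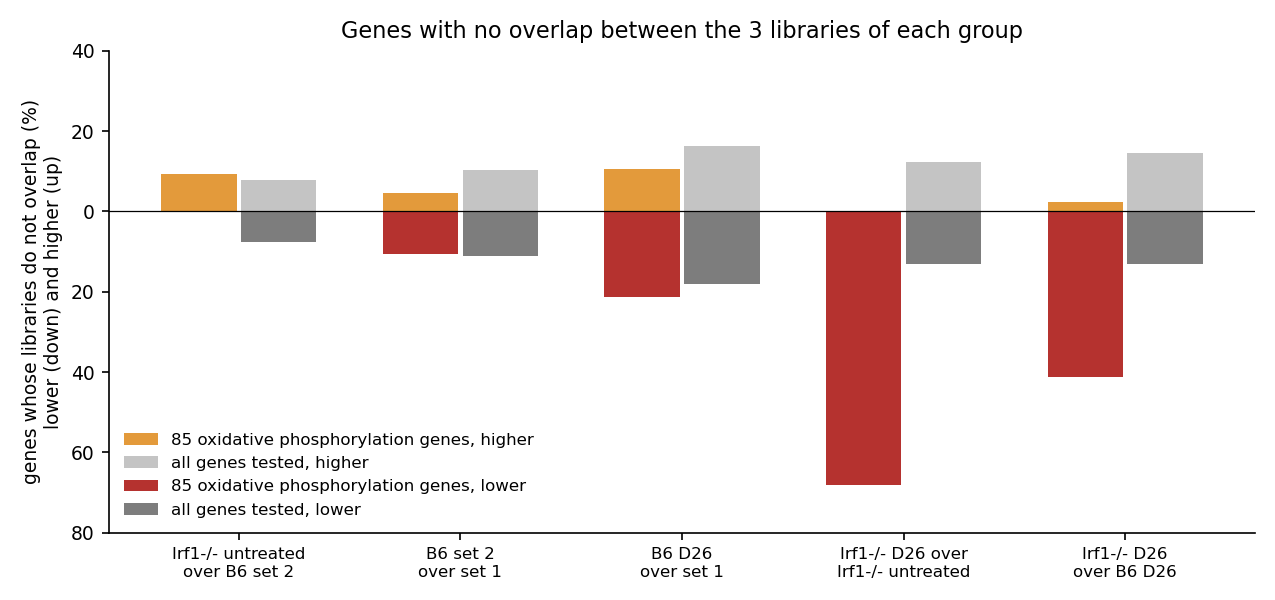
Bars give the share of genes, in percent, whose 3 libraries in one group are all above (up) or all below (down) the 3 of the other group, in colour for the 85 OXPHOS genes and in grey for all genes tested. For treated over untreated Irf1-/- mutants the downward shares are 68.2% and 13%.

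In complex I, 40 of 43 genes had a negative log2 FC in the treated mutants and the median was -0.16. Ndufa1, a small accessory subunit of its membrane arm, was at 49.6, 48.5 and 51.4 CPM in treated and 64.9, 74.3 and 64.2 CPM in untreated mutants. The groups were well apart, with a log2 FC of -0.44 (SE 0.08, edgeR adjusted p = 0.0289). Its adjusted p was under 0.05 in all 11 alternatives that kept all mice and in 2 of the 6 fits with a mouse left out, and was highest, at 0.119, without untreated replicate 2. Ndufa2, an accessory subunit of the matrix arm, was at 44.2, 41.6 and 42.8 CPM in treated and at 52.4, 51.9 and 52.2 CPM in untreated mutants. These values did not overlap either, with a log2 FC of -0.28 (SE 0.06, edgeR adjusted p = 0.0517). Among the core subunits, Ndufv1, which binds NADH, had a log2 FC of -0.19 without overlap between the groups. Ndufs1, which holds iron-sulfur clusters, had -0.14, with overlapping groups.

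In complex II, all 4 subunits had a negative log2 FC, from -0.22 to -0.13, and none had overlapping groups. Sdha was at 293, 324 and 312 CPM in treated and 362, 364 and 359 CPM in untreated mutants (log2 FC -0.22, SE 0.07, edgeR adjusted p = 0.118). Sdhc, which anchors the complex in the membrane, had a log2 FC of -0.21 (SE 0.06), and Sdhb, its iron-sulfur subunit, one of -0.15 (SE 0.06).

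In complex III, all 8 subunits had a negative log2 FC, with a median of -0.18, and 7 of 8 had groups that did not overlap. The smallest p was that of Uqcr10, a small membrane subunit, at 116, 115 and 117 CPM in treated and 130, 143 and 136 CPM in untreated mutants. Its log2 FC was -0.23 (SE 0.06, edgeR adjusted p = 0.0909). Uqcr11 had the same log2 FC (SE 0.07), while Uqcrc1, a core protein, had -0.07 and Uqcrfs1, the Rieske iron-sulfur protein, -0.11. Cytochrome c (Cycs) was at 161, 175 and 165 CPM against 183, 203 and 187 CPM, again without overlap, with a log2 FC of -0.19 (SE 0.07, edgeR adjusted p = 0.182).

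Complex IV had the lowest median of the complexes, at -0.23, a difference of -14.6%, and all 12 of its genes had a negative log2 FC and groups that did not overlap. Cox7c, a small subunit that has pseudogenes, was at 152, 171 and 161 CPM in treated and 206, 210 and 194 CPM in untreated mutants. The highest treated value was below the lowest untreated one, and the log2 FC was -0.33 (SE 0.07, edgeR adjusted p = 0.0447). With each mouse left out in turn its adjusted p was 0.0540 to 0.214, under 0.05 in none of 6 fits and highest without untreated replicate 2. Cox4i1 was at 375, 383 and 403 CPM against 469, 466 and 458 CPM, a log2 FC of -0.26 (SE 0.06, edgeR adjusted p = 0.0734), and Cox5a at 153, 143 and 149 CPM against 176, 178 and 169 CPM, a log2 FC of -0.23 (SE 0.06, edgeR adjusted p = 0.0922). Neither gene had overlapping groups. Cox7a1 had the lowest log2 FC of all OXPHOS genes, at 15.3, 18 and 23.9 CPM in treated and 25, 30.6 and 29.7 CPM in untreated mutants. The treated values spread widely but stayed below the untreated ones, and the log2 FC was -0.57 (SE 0.16, edgeR adjusted p = 0.0986, and 0.0251 to 0.325 with a mouse left out). The common isoform Cox7a2 was at 130, 142 and 135 CPM against 157, 169 and 159 CPM (log2 FC -0.25, SE 0.06).

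Of the genes grouped with complex V by symbol, 16 of 17 had a negative log2 FC, with a median of -0.14. The exception was Atp5sl, which does not encode a subunit. Atp5a1 was at 1133, 1128 and 1151 CPM in treated and 1295, 1323 and 1253 CPM in untreated mutants, and Atp5b at 1336, 1326 and 1351 against 1473, 1489 and 1427 CPM. Neither gene had overlapping groups, and their log2 FC were -0.18 (SE 0.07, edgeR adjusted p = 0.182) and -0.13 (SE 0.06, edgeR adjusted p = 0.335). The smallest p was that of Atp5j2, a membrane subunit, at 117, 107 and 120 CPM against 137, 143 and 138 CPM. Its log2 FC was -0.28 (SE 0.07, edgeR adjusted p = 0.0677), the same as that of Atp5k (SE 0.08), another membrane subunit. The 3 c ring genes had log2 FC of -0.16 to -0.08.

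**Figure D4:**
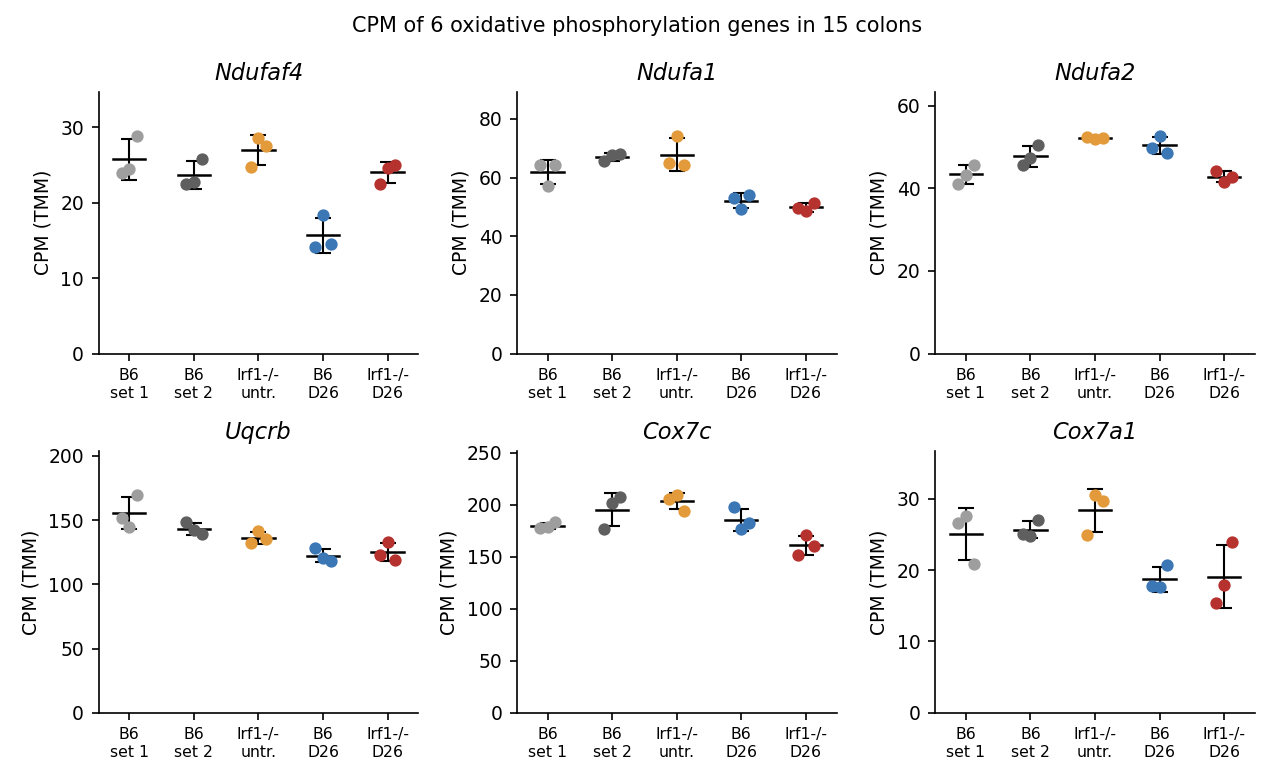
Points are the CPM of 6 genes in single libraries of the 5 groups, with lines for the mean and SD of 3 mice. Ndufaf4 is lowest in treated B6 mice, Ndufa1 and Cox7a1 are low in both treated groups, and Ndufa2 and Cox7c are low in treated relative to untreated Irf1-/- mutants.

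Whether the responses themselves differed was tested as an interaction over 12 libraries, the mutant response minus the B6 response. No OXPHOS gene was called (background 0.016% higher and 0% lower) or had an adjusted p under 0.05 (background 0.024% higher and 0.024% lower). In the same test, 68 of 85 log2 differences were negative (80%, background 48.1%), and their median was -0.15, against 0.01 for all genes. At an unadjusted p under 0.05, 25 genes were lower (29.4%, background 7.23%) and 2 higher (2.35%, background 9.65%), and with DESeq2 8 genes were lower at an adjusted p under 0.05. Complex IV again had the lowest median, at -0.22. Correction for transcript length brought the median over the 85 genes to -0.07, with 16 genes lower at an unadjusted p under 0.05, and correction for GC content to -0.11. The counts with DESeq2 and after correction have no background beside them, since shares of all genes in those fits are not given here.

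The smallest p of this test was that of Ndufa2, with a log2 difference of -0.50 (SE 0.09, edgeR adjusted p = 0.0681). It was at 49.8, 52.8 and 48.6 CPM in treated B6 mice and 41.2, 43.3 and 45.7 CPM in control set 1, so that it was above its controls in B6 mice and below them in the mutants. Ndufv3 followed, at 61.7, 56.2 and 61.6 CPM in treated and 67.4, 69.6 and 65.5 CPM in untreated mutants, with its B6 values given earlier. Its log2 difference was -0.42 (SE 0.09, edgeR adjusted p = 0.0770). Uqcr11 had -0.37 (edgeR adjusted p = 0.0887), Cox7c -0.38 (edgeR adjusted p = 0.102), and Cox8a, a small subunit of complex IV, -0.44 (edgeR adjusted p = 0.102). The largest positive difference was that of Ndufaf4, at 0.55 (SE 0.16, edgeR adjusted p = 0.128), with 22.5, 24.6 and 25.1 CPM in treated and 24.8, 28.6 and 27.5 CPM in untreated mutants. Its mutant groups overlapped, at a log2 FC of -0.16 (SE 0.09, edgeR adjusted p = 0.383).

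The last comparison asks how the genotypes differed at D26. It shares the treated libraries with the comparisons before it. Relative to treated B6 mice, 67 of 85 OXPHOS genes were lower in treated Irf1-/- mutants (78.8%, background 51.5%), with a median log2 FC of -0.14. No gene was called (background 0.0721% higher and 0.312% lower) or had an adjusted p under 0.05 (background 0.937% higher and 1.11% lower). At an unadjusted p under 0.05, 27 were lower (31.8%, background 10.6%) and 1 higher (1.18%, background 11.4%). Libraries did not overlap for 35 genes lower (41.2%, background 13%) and 2 higher (2.35%, background 14.5%), which were Ndufaf4 and Ndufa4, the latter named for this count after its values were seen. After correction for GC content the median was -0.10, with 10 genes lower at an unadjusted p under 0.05, and after correction for length -0.07, with 12. Without treated B6 replicates 1 and 3, each left out alone, this number was 16 and 11, and without treated Irf1-/- replicate 2 it was 13. Backgrounds for the counts after correction or with a mouse left out are not given here.

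Ndufaf4 was the OXPHOS gene with the largest difference between treated genotypes, a log2 FC of 0.60 (SE 0.13, edgeR adjusted p = 0.0504). The lowest mutant value, 22.5 CPM, was above the highest B6 value, 18.3 CPM. It was called with DESeq2 (adjusted p = 0.00297), edgeR's exact test and all 15 libraries in 1 fit, and after correction for GC content the log2 FC was 0.37 (edgeR adjusted p = 0.224). Ndufs7, a core iron-sulfur subunit of complex I, was at 48.1, 47.5 and 47.8 CPM in mutants and 64.7, 55.9 and 56.2 CPM in B6 mice, without overlap. Its log2 FC was -0.32 (SE 0.09, edgeR adjusted p = 0.0911), and -0.15 after correction for GC content. Cox8a had the lowest log2 FC, at 223, 190 and 230 CPM against 274, 252 and 275 CPM, also without overlap (log2 FC -0.34, SE 0.10, edgeR adjusted p = 0.116).

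Other genes of mitochondrial energy metabolism were taken from lists written for this comparison, and the plot of gene lists gives their medians. In treated relative to untreated mutants, all 4 nuclear subunits outside the symbol rule had a negative log2 FC, with a median of -0.15, and none had an adjusted p under 0.05. Usmg5, a membrane subunit of the ATP synthase, had -0.21 (SE 0.07, edgeR adjusted p = 0.147). Of 28 other assembly factors, 25 had a negative log2 FC (median -0.13), and Atpaf2, which helps to assemble the ATP synthase, fell with a log2 FC of -0.47 (SE 0.06, edgeR adjusted p = 0.0155). All 16 genes of the TCA cycle and pyruvate dehydrogenase had a negative log2 FC, with a median of -0.10, and so had 18 of 20 genes of fatty acid oxidation and ketone synthesis, with a median of -0.13. None of these had an adjusted p under 0.05. The medians of 15 glycolysis genes and 16 genes of mitochondrial channels, carriers, import and chaperones were both -0.07. Among 16 regulators of mitochondrial genes the median was -0.06, and Ppargc1a, the coactivator PGC-1alpha, had -0.36 (SE 0.14, edgeR adjusted p = 0.212). In treated B6 mice Ppargc1a had -0.57 (SE 0.17, edgeR adjusted p = 0.0660), and neither of its values had an adjusted p under 0.05.

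In treated B6 mice, these lists had medians of -0.04 for the other subunits, -0.08 for assembly factors, -0.07 for the TCA cycle, -0.07 for fatty acid oxidation and 0.13 for glycolysis. Cox20, an assembly factor of complex IV, fell (log2 FC -0.70, SE 0.14, edgeR adjusted p = 0.0249), and so did Sucla2 and Idh3a of the TCA cycle (log2 FC -0.38 and -0.36, edgeR adjusted p = 0.0330 and 0.0342).

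**Figure D5:**
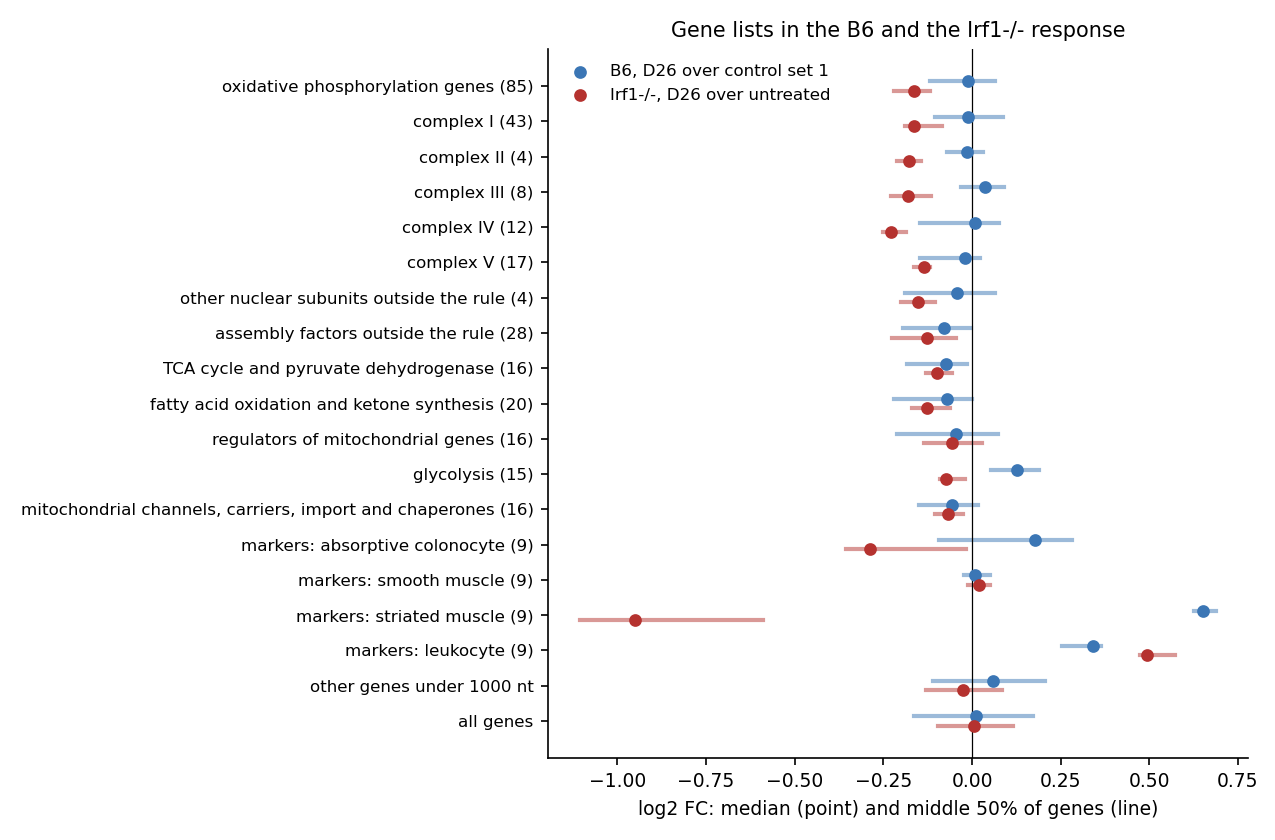
Points are the median log2 FC of each gene list, with the number of genes in parentheses beside the shorter lists, and lines span the middle 50% of its genes, for the B6 and the Irf1-/- response. The OXPHOS complexes lie near 0 in B6 mice and between -0.23 and -0.14 in Irf1-/- mutants, and striated muscle markers lie on opposite sides of 0.

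OXPHOS promoters with and without the motif letters had like values in the treated mutants. The median log2 FC was -0.16 for the 18 genes with an NRF1 match, all of them negative, and -0.16 for the 55 genes without one, of which 51 were negative. For the 17 genes with an ETS match the median was -0.15, and for the 56 without one -0.16. These are descriptions of letters in a window, with no test.

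Markers of other cell types moved in the same libraries. All 9 striated muscle markers (Ckm, Acta1, Myh1 and others) had a negative log2 FC in treated relative to untreated mutants, with a median of -0.95, and their summed level was 128 to 239 CPM against 257 to 366 CPM. In treated B6 mice all 9 had a positive log2 FC, with a median of 0.65 and 297 to 560 CPM against 203 to 246 CPM in control set 1. In control set 2 the summed level was 314 to 453 CPM, within the range of treated B6 mice. Cox7a1 had a log2 FC of -0.41 in treated B6 mice relative to control set 1. Goblet cell markers had a median log2 FC of 0.95 in treated B6 mice (8 of 8 positive, 5 of them with an adjusted p under 0.05) and 0.24 in treated mutants (6 of 8 positive). Their median log2 FC between control set 2 and control set 1 was 0.63 (8 of 8 positive), so the size of the B6 value depended on the control set. Of 9 leukocyte markers with counts, all were higher in treated mutants, with a median log2 FC of 0.49 and a summed level of 379 to 432 CPM against 248 to 301 CPM, and Cd3e was not analysed here. In B6 mice the summed leukocyte level was 306 to 433 CPM after treatment and 224 to 379 CPM in control set 1, with overlap. Absorptive colonocyte markers had a median of -0.29, with 7 of 9 negative and 2750 to 3580 CPM against 3540 to 3910 CPM. Smooth muscle markers had a median of 0.02 and overlapping summed levels in the mutants. All 5 endothelium markers had a positive log2 FC in both responses, with medians of 0.29 in mutants and 0.35 in B6 mice, and summed levels of 175 to 216 CPM in treated against 150 to 156 CPM in untreated mutants. All 6 fibroblast markers were positive in the mutants (median 0.27), with overlapping summed levels. No endothelium or fibroblast marker had an adjusted p under 0.05 in the mutants. Among leukocyte markers, Tyrobp and Itgam did, with log2 FC of 0.88 and 0.62 (edgeR adjusted p = 0.0226 for both). The striated muscle marker Myh2 did as well, with a log2 FC of -0.95 (edgeR adjusted p = 0.0450). Other genes under 1000 nt had a median log2 FC of -0.02 in the treated mutants (2191 genes) and 0.06 in treated B6 mice (2201 genes). The part of cell composition, of transcript length and of GC content in the values of the OXPHOS genes was not tested beyond the corrections given beside them.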

How the data were processed

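Stranded libraries of distal colon RNA without ribosomal RNA had been read as 50 bp pairs. The strand setting used in counting is not given in the sources used here. The authors deposited 3 tables of raw read counts per gene, made per their processing notes with TopHat2 2.0.9, Bowtie 1.0.0 and featureCounts on build mm9, without genes under 5 CPM in at least 3 samples. The deposited tables also hold the authors' CPM, log2 FC and p-values, which were not used. From the counts, groups of 3 mice were tested with edgeR 4.0.16 (quasi-likelihood, TMM) in R 4.3.3 over all genes of the tables that hold both groups, without a replicate term. DESeq2 1.42.0 was used as an alternative. Log2 deviations used a prior count of 2. Transcript length and GC content came from GENCODE M21 by symbol (99.3% of genes, all 85 OXPHOS genes), and corrections were lowess fits with a span of 0.3. Named genes were those with the smallest p in each complex (2 each), the extremes of log2 FC, and fixed core subunits. Cox7a2, the c ring genes, Ndufs3, Ndufs7, Ndufb3 and Atp5sl were named beside them to complete a pair, a ring or a count. The OXPHOS genes and all lists were chosen with earlier results of these data known. Within groups, chi-square over its degrees of freedom was 8.65 to 42.7, where counting error alone gives about 1, so no libraries were merged and the spread between mice set the precision. Values of some genes are not reported here.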

Additional observations from a re-analysis of the deposited data

How the results depend on the processing

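No OXPHOS gene was called in any comparison with a mouse left out. In treated B6 mice the number of called genes was 0 in the report and 1 (Ndufaf4) with DESeq2, edgeR's exact test, all 15 libraries in 1 fit or both control sets, and it was 2 at an adjusted p under 0.05 with no fold limit. For treated Irf1-/- mutants against untreated ones it was 2 at that limit. Between treated genotypes it was 1 (Ndufaf4) with DESeq2, the exact test or all 15 libraries. The median log2 FC in B6 mice was -0.0628 with a length correction and replicate block, an alternative chosen after seeing the data. The median difference between the responses was -0.0723 with a length correction and -0.0727 with the block added. Between treated genotypes the median was -0.104 with a GC correction, -0.101 with the block added, -0.0713 with a length correction and -0.0676 with the block added. The cause of these shifts was not tested. With a mouse left out, that median ranged from -0.159 (without treated B6 replicate 2) to -0.111 (without treated B6 replicate 1). For the mutant response the leave-one-out range was -0.178 to -0.147, and for the B6 response -0.0361 to 0.0244, on both sides of 0. For untreated genotypes it was 0.00856 to 0.0773. With the other control set, the B6 response had 3 genes lower at an adjusted p under 0.05, Ndufaf4, Cox7a1 and Ndufa1, and untreated Irf1-/- mutants had Ndufa2 higher and Ndufa7 lower, all named after their values were seen. Shares of all genes with the other control set are not given here. The exact test was not run for the difference between the responses, since it compares pairs of groups.

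With the replicate number as a replicate block, the medians were 0.0401 for untreated genotypes, -0.0108 for B6 mice, -0.164 for the mutants, -0.152 for the difference, -0.141 for treated genotypes and -0.00453 for the control sets, with 0 genes called in each. The block left 0 of 2 B6 genes with an adjusted p under 0.05. Same-numbered libraries did not deviate together (correlations over 0.1 in 0 of 3 pairs for B6 mice and 1 of 3 for the mutants), so the numbers were not taken to pair mice.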
